A study of Mus musculus with 6 samples.

Results

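The proteasome genes were examined in the hippocampus of male mice that lack the maternal copy of *Ube3a*. They were taken by symbol, as every listed gene named Psm followed by a letter from a to g and a number, and 48 of the 25239 listed genes carried such a name. Hippocampal RNA was sequenced from 3 WT (Ube3am+/p+) and 3 Ube3am-/p+ mice, all male, C57BL/6 and 6 to 8 weeks old, with 1 library per mouse. The Ube3am-/p+ mouse is a model of Angelman syndrome. It keeps the paternal copy of *Ube3a*, which is silenced in most neurons, and the sources used here do not describe how the maternal allele was made. After a filter on low counts 46 of the 48 genes were tested among 14445 genes. *Psma8* and *Psmb11* had too few reads, with 13 and 19 counts in the 6 libraries.

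The 26S proteasome is the barrel-shaped protease that degrades proteins tagged with ubiquitin. Its 20S core is a stack of rings of alpha and beta subunits, and beta subunits hold the cutting sites on the inside. The 19S particle caps the core, binds ubiquitin chains, removes them and feeds the unfolded substrate into the barrel with a ring of ATPases. UBE3A is an E3 ligase, one of the enzymes that attach ubiquitin to substrates, so the proteasome stands directly downstream of its ligase activity. The question asked of these counts was whether the mRNAs of the proteasome differed between the genotypes.

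The libraries held 7293272 to 8675252 counts on genes in WT mice and 8871052 to 11314409 in Ube3am-/p+ mice, and the proteasome genes took 0.265% to 0.294% of them. *Ube3a* itself had 104, 141 and 151 counts per 1000000 gene counts (CPM) in WT mice 1, 2 and 3, and 96.8, 82.9 and 80.6 CPM in Ube3am-/p+ mice 1, 2 and 3. Its log2 fold change was -0.58 (standard error, SE, 0.123, edgeR adjusted p = 0.0363), with no overlap between the genotypes. The nearest values of the 2 genotypes were those of the mice numbered 1 (104 and 96.8 CPM). The libraries also differed in how the count of a gene followed the GC content of its transcript. Spearman's rho of GC content with a library's deviation from the 6-library mean, taken over 14201 genes that do not replicate each other, was negative in WT mice 2 (-0.506) and 3 (-0.571). It was positive in Ube3am-/p+ mice 2 (0.526) and 3 (0.528), and close to 0 in both mice numbered 1 (0.0455 and 0.0588). The relation to GC content therefore differed by genotype in the mice numbered 2 and 3, and hardly between those numbered 1. The libraries were corrected for the GC content and length of each gene's longest transcript and, as chosen after seeing the data, of its longest coding transcript. The first correction gave *Ube3a* a log2 fold change of -0.19 (edgeR adjusted p = 0.255), so that it was no longer called.

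No proteasome gene was differentially expressed between Ube3am-/p+ and WT mice by edgeR's quasi-likelihood test, for which the adjusted p had to be below 0.05 with a fold change of more than 1.2. Over all tested genes 290 (2.01%) passed, 1.02% higher and 0.99% lower in Ube3am-/p+ mice. At an unadjusted p below 0.05 there were 16 of the 46 proteasome genes, 13 higher and 3 lower in Ube3am-/p+ mice, while 24.6% of all tested genes reached that level (12.2% higher, 12.4% lower). With the fold threshold added there were 11 proteasome genes, beside 19.6% of all genes. Without the filter on low counts edgeR called 5 (*Psmb6*, *Psmb7*, *Psmb10* and *Psmc5* higher, *Psme4* lower), beside 6.1% of all genes. DESeq2 called 3 of the 42 proteasome genes to which it gave an adjusted p, *Psmb6*, *Psmb7* and *Psmc5*, which is 7.14% beside 8.58% of all genes. The log2 fold changes of the 46 genes ran from -0.40 to 0.48 with a median of 0.14, beside 0.0025 over all tested genes. The estimate was above 0 in 32 of the 46 genes, beside 50.3% of all tested genes. The median was 0.09 after the correction on the longest transcript, with 34 of 46 genes above 0 beside 50.3% of all genes, and 0.08 on the coding transcript, with 32 of 46 beside 50.5%. The first turned the sign of 10 of the 46 genes and the second of 12.

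**Figure D1:**
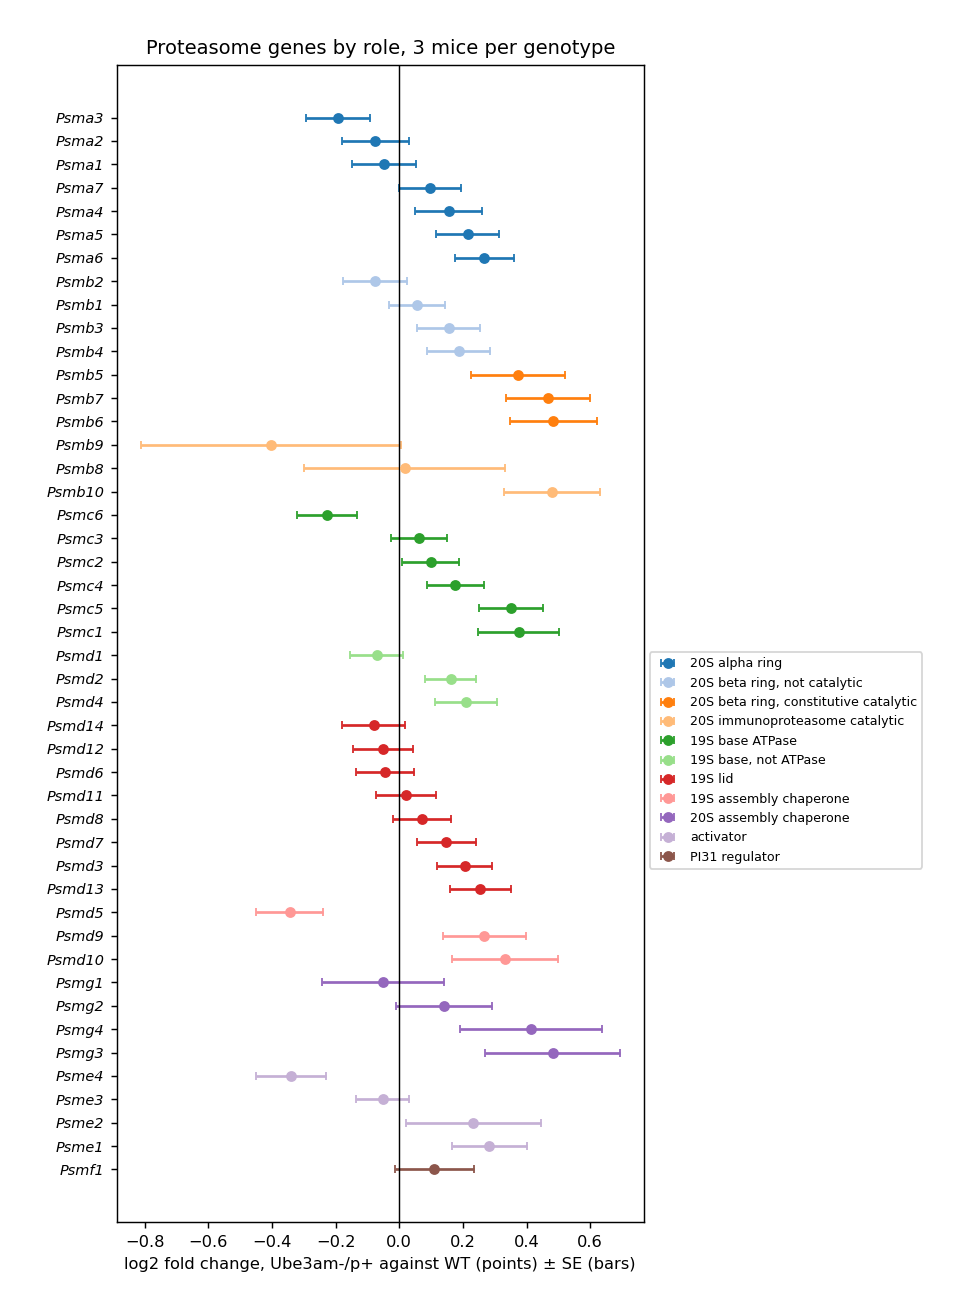
The log2 fold change of Ube3am-/p+ against WT mice (x axis) for the 46 tested proteasome genes (y axis), grouped and coloured by role, with bars of 1 standard error from edgeR. The 3 constitutive catalytic subunits sit between 0.37 and 0.48, while the lid subunits stay between -0.08 and 0.25.

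The summed proteasome mRNA was 2651, 2658 and 2732 CPM in WT mice 1, 2 and 3, and 2735, 2843 and 2943 CPM in Ube3am-/p+ mice 1, 2 and 3. The genotypes did not overlap, but Ube3am-/p+ mouse 1 lay next to WT mouse 3. Of the single genes, 12 were higher and 4 lower in every Ube3am-/p+ mouse than in every WT mouse. Over all tested genes 25% did not overlap, 10.8% higher and 14.2% lower. In the mice numbered 1, the Ube3am-/p+ mouse had the higher value in 30 of the 46 genes, beside 49.5% of all genes. This count rests on 1 library per genotype, which all the genes share. With the mice numbered 2 and 3 alone, 36 genes did not overlap, beside 65.9% of all genes. An exact permutation test over 3 mice against 3 cannot give a p below 0.1, so it cannot reach 0.05 for any of these genes.

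The constitutive catalytic subunits *Psmb5*, *Psmb6* and *Psmb7* carry the chymotrypsin-like, caspase-like and trypsin-like activity of the core. *Psmb6* had 39.5, 37.3 and 45.0 CPM in WT mice 1, 2 and 3, and 43.2, 61.2 and 63.1 CPM in Ube3am-/p+ mice 1, 2 and 3. Ube3am-/p+ mice 2 and 3 were above every WT mouse, and Ube3am-/p+ mouse 1 was below WT mouse 3. The means were 40.6 ± 3.94 CPM and 55.8 ± 11.0 CPM (SD, n = 3 each), with a log2 fold change of 0.48 (SE 0.135, edgeR adjusted p = 0.0632). *Psmb7* had 78.0, 60.1 and 62.1 CPM in WT mice and 75.5, 90.3 and 107 CPM in Ube3am-/p+ mice. Here too Ube3am-/p+ mouse 1 lay among the WT mice, just below WT mouse 1. The log2 fold change was 0.47 (SE 0.132, edgeR adjusted p = 0.0632). *Psmb5* had 31.7, 28.4 and 30.6 CPM in WT mice and 28.9, 40.9 and 45.6 CPM in Ube3am-/p+ mice. Its log2 fold change was 0.37 (SE 0.146, edgeR adjusted p = 0.137).

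In all 3 catalytic genes Ube3am-/p+ mouse 1 thus lay within the WT range, and Ube3am-/p+ mice 2 and 3 were above every WT mouse. Summed over the 3 genes, WT mice had 149, 126 and 138 CPM and Ube3am-/p+ mice 148, 192 and 216 CPM. With the mice numbered 2 and 3 alone, a choice made after seeing the data, the adjusted p by edgeR was 0.000655 for *Psmb5*, 0.000172 for *Psmb6* and 2.57e-05 for *Psmb7*. These p-values are not independent of the choice, as these mice were seen to separate in these genes. Their libraries also had the most opposed relations to GC content, for which this fit was not corrected. In that comparison 14 of 46 proteasome genes were called (30.4%), beside 28.3% of all genes. Leaving out only WT mouse 1 gave 7 called genes (17.6% of all genes), and leaving out only Ube3am-/p+ mouse 1 gave 8 (12.5% of all genes). After the correction on the longest transcript *Psmb5*, *Psmb6* and *Psmb7* were at 0.10, 0.33 and 0.70 (adjusted p = 0.748, 0.143 and 0.312, edgeR). On the coding transcript they were at 0.09, 0.21 and 0.43 (adjusted p = 0.758, 0.355 and 0.197, edgeR), so that *Psmb7* was above its uncorrected value with the first correction and below it with the second. *Psmb5* shares 98.9% identity over 796 bases with the processed pseudogene *Gm3375*, *Psmb6* 96.2% over 265 bases with *Psmb6-ps2*, and 405 bases of *Psmb7* exons overlap *Nek6* on the opposite strand. Their counts are uncertain to that extent, as reads with more than 1 alignment were not counted on genes and the strand setting is not given in the sources used here.

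**Figure D2:**
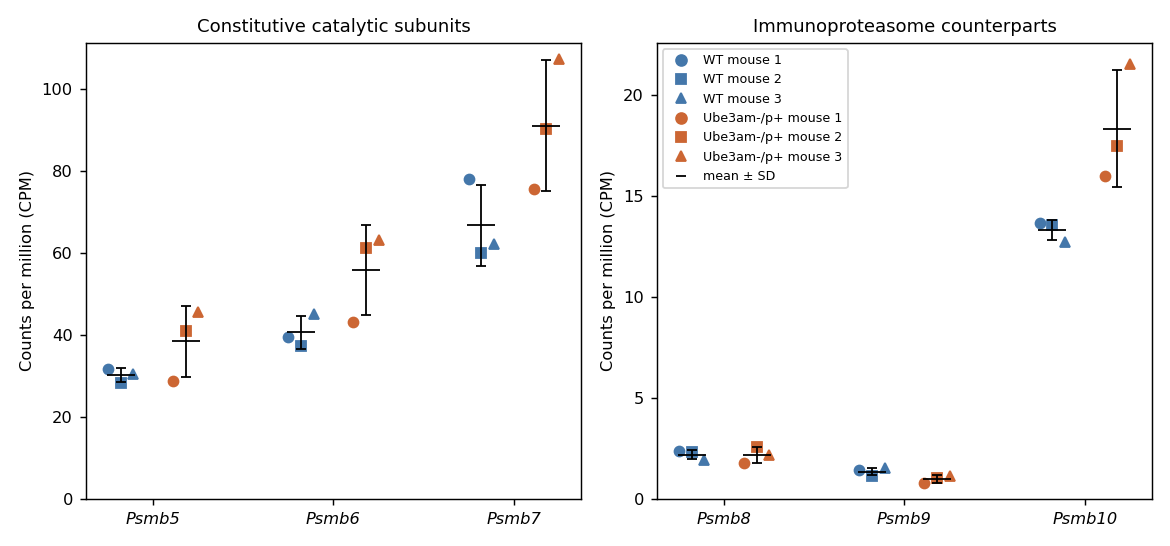
CPM (y axis) of the constitutive catalytic subunits (left) and their immunoproteasome counterparts (right) in each mouse, with the mean and SD of 3 mice in black. The 2 panels have different scales: *Psmb7* reached 107 CPM, and *Psmb9* at most 1.51 CPM.

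The promoters of proteasome genes are known targets of NFE2L1, a transcription factor that acts through antioxidant response elements. The core of this element, TGACNNNGC, was searched on both strands of the RefSeq promoter windows (GRCm38.p6, 250 bases before to 50 after a start), which covered 40 of the 48 genes. It was found in 6 of them (15%), beside 13.99% of all genes with a window. These 6 sites are shown because they include the catalytic genes *Psmb5* and *Psmb6* at the upper end of the range and *Psme4* and *Psmc6* at the lower end. Each is read on the strand of the gene, with the core in capitals (its reverse complement in *Psmc6*, *Psmd12* and *Psme4*).
Psmb5, chr14:54618025-54618051: gtgaagttgTGACGTCGCggcgttgcc
Psmb6, chr11:70525339-70525365: taaagagagTGACGGAGCgctttacga
Psmd9, chr5:123228150-123228176: tctagccggTGACCCCGCccacttcca
Psmc6, chr14:45329588-45329614: cagccagtaGCTAAGTCAggcattgct
Psmd12, chr11:107479278-107479298: tctGCTGTGTCAcatttgccc
Psme4, chr11:30771759-30771785: gctgcggctGCAGCGTCAccagaagag
The median log2 fold change was 0.11 over the 6 genes with the core and 0.16 over the 33 tested genes whose windows lacked it. The CCAAT box, which NF-Y binds, was in 14 of the 40 genes (35%), beside 41.1% of all genes. The core of interferon response elements, searched as GAAA, any pair of bases and GAAA, was in 5 (12.5%), *Psmb3*, *Psmd4*, *Psmd9*, *Psme1* and *Psmg4*, beside 3.99% of all genes.

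The immunoproteasome subunits *Psmb8*, *Psmb9* and *Psmb10* replace *Psmb5*, *Psmb6* and *Psmb7* in immune cells and under interferon, and favour peptides for antigen presentation. They were far below their counterparts. Per length of exon, WT mice had 3.47 to 4.49 *Psmb8* per 100 *Psmb5*, and Ube3am-/p+ mice 2.65 to 3.46. The values for *Psmb9* per 100 *Psmb6* were 1.82 to 2.11 in WT mice and 1.02 to 1.08 in Ube3am-/p+ mice, without overlap. They rest on 64 counts of *Psmb9* in all libraries. The ratio of *Psmb10* to *Psmb7* overlapped, at 15.5 to 20.04 per 100 in WT mice and 17.1 to 18.8 in Ube3am-/p+ mice.

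*Psmb10*, on chromosome 8, was the most abundant of the 3. It had 13.7, 13.6 and 12.8 CPM in WT mice 1, 2 and 3, and 16.01, 17.5 and 21.6 CPM in Ube3am-/p+ mice 1, 2 and 3. Every Ube3am-/p+ mouse was above every WT mouse, with a log2 fold change of 0.48 (SE 0.15, edgeR adjusted p = 0.0756). Both corrections lowered it, to 0.24 on the longest transcript and 0.25 on the coding transcript (adjusted p = 0.429 for both, edgeR). *Psmb9* and *Psmb8* lie near each other on chromosome 17 (GRCm38, GENCODE M21), from 34181987 to 34187764 and from 34197721 to 34201454. *Psmb9* had 1.41, 1.15 and 1.51 CPM in WT mice and 0.789, 1.06 and 1.14 CPM in Ube3am-/p+ mice. These values did not overlap, but the log2 fold change of -0.40 had a standard error of 0.408 (adjusted p = 0.575, edgeR). *Psmb8* overlapped, with 2.36, 2.31 and 1.92 CPM in WT mice and 1.80, 2.56 and 2.19 CPM in Ube3am-/p+ mice. Its log2 fold change was 0.02 (SE 0.315, edgeR adjusted p = 0.98), and its sign turned after the correction for GC content and coding length (-0.17) and after that on the longest transcript (-0.09). Exons of *Psmb9* overlap *Tap1* on the opposite strand over 212 bases. The partners of the immunoproteasome in antigen presentation, such as the peptide transporter *Tap1* and the class I light chain *B2m*, had a median log2 fold change of 0.01, and none of the 10 had an unadjusted p below 0.05. The ends of that list were *Tap1* (0.36) and *B2m* (-0.18).

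Among the other beta subunits, which build the ring without a cutting site, *Psmb4* (0.19), *Psmb3* (0.16), *Psmb1* (0.06) and *Psmb2* (-0.08) had adjusted p between 0.252 and 0.728 (edgeR). None reached an unadjusted p of 0.05, and all 4 overlapped between the genotypes. The 7 alpha subunits, whose ring gates the entry to the core, ran from -0.19 to 0.27, with 4 above 0. The highest was *Psma6*, with 50.1, 52.1 and 53.1 CPM in WT mice 1, 2 and 3, and 57.2, 64.3 and 62.9 CPM in Ube3am-/p+ mice 1, 2 and 3. Its groups did not overlap, and the log2 fold change was 0.27 both before the correction for GC content and coding length (SE 0.0938, edgeR adjusted p = 0.103) and after it (adjusted p = 0.115, edgeR). *Psma5* did not overlap either, at 39.8 to 44.5 CPM in WT mice and 45.8 to 49.9 CPM in Ube3am-/p+ mice (log2 fold change 0.21, edgeR adjusted p = 0.197). *Psma3* was at the lower end with 85.4, 104 and 107 CPM in WT mice and 83.1, 81.6 and 91.0 CPM in Ube3am-/p+ mice. Its groups overlapped through WT mouse 1, and its log2 fold change of -0.19 (adjusted p = 0.245, edgeR) turned to 0.08 after the correction.

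**Figure D3:**
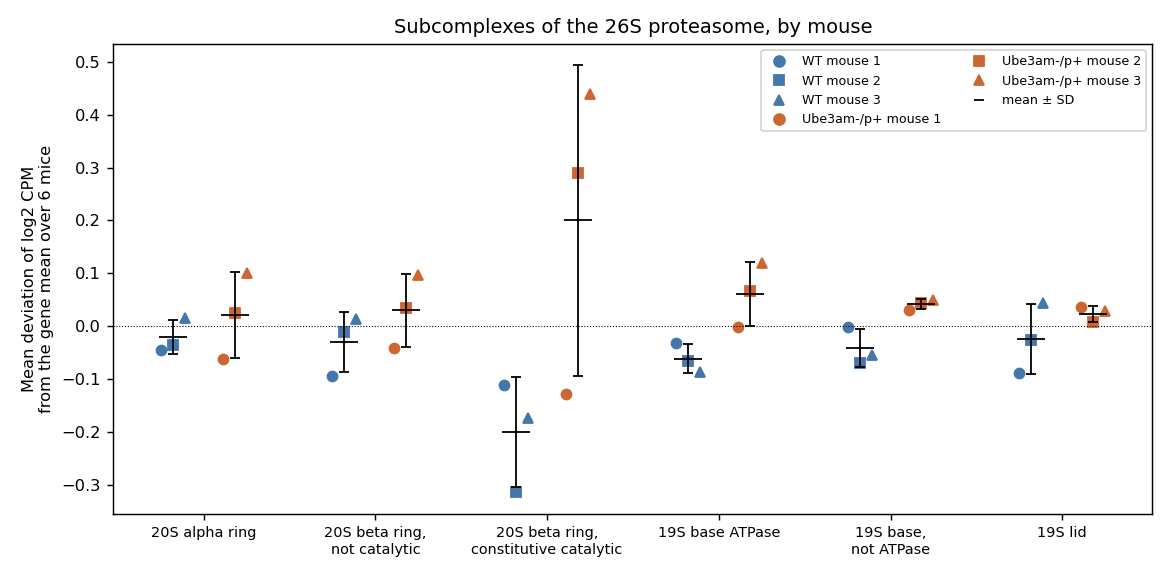
Mean deviation of log2 CPM from each gene's mean over the 6 mice (y axis) for 6 groups of 26S subunits (x axis), per mouse, with the mean and SD of 3 mice in black. In the constitutive catalytic group Ube3am-/p+ mice 2 and 3 are at 0.29 and 0.44 and Ube3am-/p+ mouse 1 is at -0.13, inside the WT range of -0.31 to -0.11.

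The 6 ATPases of the 19S base unfold substrates and open the core. 5 of them had a log2 fold change above 0 and 1 below. *Psmc5* had 92.6, 90.03 and 105.03 CPM in WT mice 1, 2 and 3, and 105.06, 129 and 128 CPM in Ube3am-/p+ mice 1, 2 and 3. The gap between WT mouse 3 and Ube3am-/p+ mouse 1 was very small, and the log2 fold change was 0.35 (SE 0.101, edgeR adjusted p = 0.0632). *Psmc1* had 111, 86.1 and 74.6 CPM in WT mice and 107, 113 and 128 CPM in Ube3am-/p+ mice. It overlapped through the mice numbered 1 and had a log2 fold change of 0.38 (SE 0.128, edgeR adjusted p = 0.0977). A processed pseudogene of *Psmc1* shares 95.6% identity over 1306 bases. *Psmc6* was lower in every Ube3am-/p+ mouse, with 63.8, 66.7 and 70.6 CPM in WT mice and 59.7, 52.6 and 57.5 CPM in Ube3am-/p+ mice. Its log2 fold change was -0.23 (SE 0.0937, edgeR adjusted p = 0.151). With the lowest GC content of the 46 genes (37.0%), it turned to 0.14 after the correction for GC content and coding length.

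Of the base subunits without ATPase activity, *Psmd2*, the scaffold that docks substrate shuttles, did not overlap, with 187, 185 and 182 CPM in WT mice and 195, 205 and 212 CPM in Ube3am-/p+ mice (log2 fold change 0.16, edgeR adjusted p = 0.223). *Psmd4*, a ubiquitin receptor, was at 0.21 (0.11 and 0.07 with the corrections) and the scaffold *Psmd1* at -0.07. The 8 lid subunits, which include the deubiquitinase *Psmd14*, ran from -0.08 to 0.25 with a median of 0.05. *Psmd13* had the highest value, with 54.5 to 61.1 CPM in WT mice and 64.0 to 72.6 CPM in Ube3am-/p+ mice (adjusted p = 0.117, edgeR). *Psmd3* was next with 111 to 113 CPM and 120 to 136 CPM (log2 fold change 0.21, edgeR adjusted p = 0.156), and it was at 0.07 after the correction on the longest transcript and at -0.01 on the coding transcript. The other 6 lid genes overlapped between the genotypes. Summed over the 17 subunits of the 19S particle with a Psm name, WT mice had 1455, 1448 and 1468 CPM and Ube3am-/p+ mice 1523, 1556 and 1598 CPM. The 14 constitutive subunits of the core had 843, 840 and 879 CPM in WT mice and 842, 929 and 992 CPM in Ube3am-/p+ mice, where mouse 1 was within the WT range.

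Some genes whose proteins assemble or regulate the proteasome lay toward either end of the range of log2 fold changes, and others lay in between. *Psmd5*, a chaperone of the 19S base, had 46.6, 55.4 and 53.2 CPM in WT mice 1, 2 and 3, and 43.6, 40.1 and 37.2 CPM in Ube3am-/p+ mice 1, 2 and 3. Every Ube3am-/p+ mouse was below every WT mouse, with a log2 fold change of -0.34 (SE 0.105, edgeR adjusted p = 0.0715). *Psme4*, the nuclear activator PA200, had 64.43, 79.5 and 70.2 CPM in WT mice and 64.37, 51.1 and 52.1 CPM in Ube3am-/p+ mice. The mice numbered 1 were almost equal, and the log2 fold change was -0.34 (SE 0.111, edgeR adjusted p = 0.0844). Both genes were still negative after the correction for GC content and coding length, at -0.19 and -0.14 (adjusted p = 0.305 and 0.484, edgeR). The other base chaperones *Psmd9* (0.27) and *Psmd10* (0.33) were higher without overlap, with adjusted p of 0.215 and 0.227 (edgeR).

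Of the chaperones of the 20S core, *Psmg3* had 4.71, 5.65 and 4.80 CPM in WT mice and 5.86, 7.69 and 7.32 CPM in Ube3am-/p+ mice. The groups did not overlap (log2 fold change 0.48, SE 0.211, edgeR adjusted p = 0.173), and the corrections gave 0.45 on the longest transcript and 0.21 on the coding transcript. *Psmg4* had 4.24, 4.73 and 6.58 CPM and 5.86, 7.07 and 7.32 CPM, which overlapped (log2 fold change 0.41, SE 0.224, edgeR adjusted p = 0.263) and gave 0.13 and 0.12 with the corrections. *Psmg2* (0.14) and *Psmg1* (-0.05) were closer to 0. Among the subunits of the activator PA28, *Psme1* had 20.7 to 22.3 CPM in WT mice and 24.7 to 28.5 CPM in Ube3am-/p+ mice, without overlap (log2 fold change 0.28, edgeR adjusted p = 0.154), and it was at 0.10 and 0.08 with the corrections. *Psme2* overlapped, and it shares 99.4% identity over 794 bases with *Psme2b*, which the symbol rule left out and which had 24 counts. *Psme3*, the nuclear form, was at -0.05 and *Psmf1*, which encodes PI31, at 0.11. The testis-specific *Psma8* had 0 to 5 counts per library, and the thymus-specific *Psmb11* 0 to 10.

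Levels of different genes were compared per kb of annotated exon. The constitutive 26S subunits with a Psm name are 31, and they stand in equal numbers within the core and within a cap. In WT mice they ran from 17.6 CPM per kb for *Psmd11* to 72.9 for *Psmc5*, a 4.14-fold range with a median of 45.6. In Ube3am-/p+ mice the same genes were at the ends, with 17.7 and 91.6 CPM per kb and a median of 50.1. The 19S subunit *Sem1*, which has no Psm name, was lower, at 11.2 CPM per kb in WT and 15.7 in Ube3am-/p+ mice. Within the core, *Psma2* was lowest (20.3 CPM per kb in WT mice) and *Psmb4* highest (72.3). *Psmb4* in the core and *Psmc5* in the base differed by less than the SD between WT mice. The catalytic genes stood at 33.6 (*Psmb5*), 50.9 (*Psmb6*) and 57.5 (*Psmb7*) CPM per kb in WT mice and at 42.8, 69.9 and 78.5 in Ube3am-/p+ mice. Of the assembly and regulatory genes, *Psmg3* was at 5.72, *Psmd10* at 6.15 and *Psme4* at 11.0 CPM per kb in WT mice, while *Psme3*, at 39.98, was above several core subunits.

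**Figure D4:**
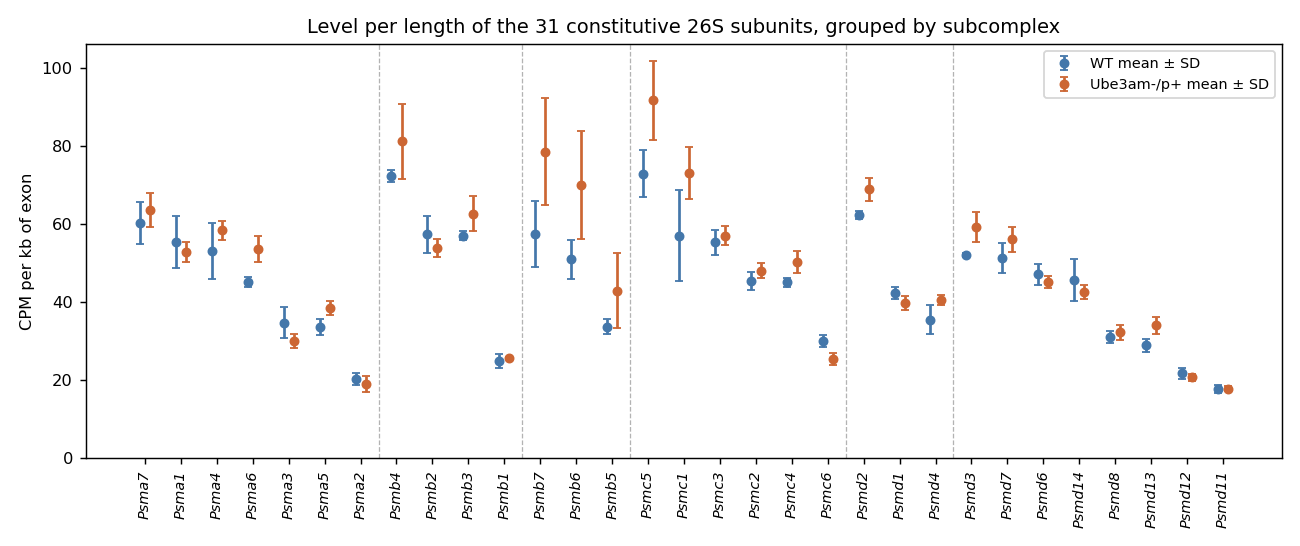
Mean level in CPM per kb of exon (y axis) of the 31 constitutive 26S subunits with a Psm name (x axis), with bars of 1 SD over 3 mice. Dashed lines part, from left to right, the alpha ring, the other beta subunits, the catalytic subunits, the ATPases, the other base subunits and the lid; the highest point in both genotypes is *Psmc5*.

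The study's network of genes related to UBE3A includes 5 proteasome genes. *Psma6*, described above, was the only one of these with an unadjusted p below 0.05 (0.0115, edgeR). *Psma1* had 61.5, 67.0 and 77.6 CPM in WT mice and 62.0, 66.2 and 68.3 CPM in Ube3am-/p+ mice (log2 fold change -0.05, standard error 0.101). *Psma2* was at -0.07 (standard error 0.105), *Psmd6* at -0.05 (standard error 0.0908) and *Psmd14* at -0.08 (standard error 0.10). All 4 overlapped between the genotypes, with adjusted p between 0.655 and 0.809 (edgeR). *Psma1*, *Psma2* and *Psmd14* turned sign with both corrections, *Psma2* to 0.20 and 0.24, so that 4 of the 5 network genes were then above 0.

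Genes of the pathway around the proteasome were read from fixed lists, and none was called by edgeR. Those that DESeq2 called include *Nfe2l1* (higher), *Uba6* and *Zfand5* (both lower). Of the 11 listed partners of the proteasome without a Psm name, 2 were higher and 2 lower at an unadjusted p below 0.05 (median log2 fold change -0.07). The ends were the small 19S subunit *Sem1* (0.51, adjusted p = 0.15, edgeR) and the deubiquitinase *Usp14* (-0.29, adjusted p = 0.12, edgeR). After the correction on the longest transcript the median of the 11 partners turned to 0.09, with 9 above 0, and *Usp14* was at 0.02 and *Sem1* at 0.68. None of the 5 substrate shuttles was at an unadjusted p below 0.05, and the lowest log2 fold change was that of *Ubqln1* (-0.08). Among the 5 regulators the ends were *Nfe2l1* (0.37) and *Nfe2l2* (-0.16). *Nfe2l1* had 280, 223 and 222 CPM in WT mice 1, 2 and 3, and 275, 331 and 318 CPM in Ube3am-/p+ mice 1, 2 and 3 (edgeR adjusted p = 0.0632), so that Ube3am-/p+ mouse 1 was again below WT mouse 1. It was at 0.27 after the correction on the longest transcript (edgeR adjusted p = 0.0881). *Nfe2l1* was the only regulator at an unadjusted p below 0.05. Of the 6 genes that supply and activate ubiquitin, 2 were higher and 1 lower at that level, and the lowest was the activating enzyme *Uba6* (-0.70, adjusted p = 0.0590, edgeR), at -0.33 after that correction.

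Within the 46 proteasome genes Spearman's rho between the log2 fold change and the GC content of the coding transcript was 0.51, beside 0.64 over 14201 genes. This is a relation across genes, which share the libraries. The median GC content was 50.4% in the proteasome genes and 50.3% in all genes, and the median coding transcript was 1491 bases beside 3205. Genes without a coding transcript enter these values over all genes with their longest transcript. The 10 genes with a near-identical copy elsewhere (at least 95% over 200 bases) had a median log2 fold change of 0.19, and the 36 tested genes without one 0.10. Reads with more than 1 alignment made up 4.15% to 5.77% of all reads listed in WT mice and 3.71% to 4.06% in Ube3am-/p+ mice. The part of these measures in the differences between the genotypes was not tested.

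**Figure D5:**
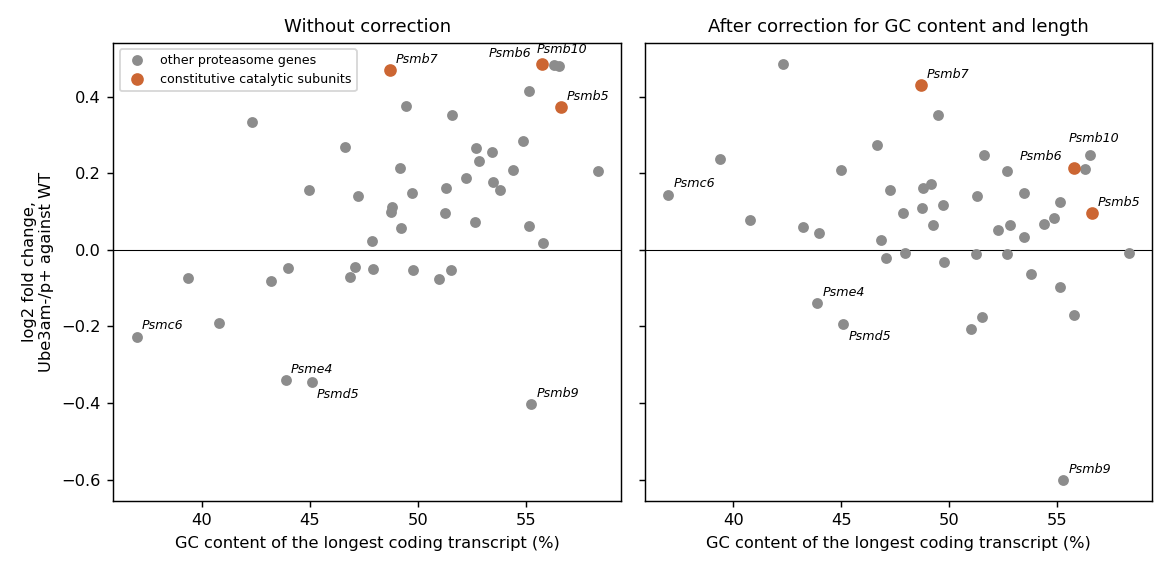
The log2 fold change of Ube3am-/p+ against WT mice (y axis) against the GC content in percent of the longest coding transcript (x axis) for the 46 tested genes, before (left) and after (right) the correction for GC content and length. *Psmc6*, with 37.0% GC, moves from -0.23 to 0.14, and *Psmb5*, with 56.6%, from 0.37 to 0.09.

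In bulk tissue a lower level per cell and fewer cells of a type cannot be told apart. Markers of hippocampal neurons summed to 2152 to 2408 CPM in WT mice and 2337 to 2718 CPM in Ube3am-/p+ mice, with 2 of 8 above 0 in log2 fold change. *Slc17a7*, of mean 1338 CPM in WT and 1686 CPM in Ube3am-/p+ mice, held most of this sum, while *Calb1* (-0.41) and *Wfs1* (-0.34) were lower in every Ube3am-/p+ mouse (adjusted p = 0.0632 and 0.0769, edgeR). The correction on the longest transcript gave -0.05 for *Calb1* (edgeR adjusted p = 0.816). It gave -0.52 for *Wfs1* (edgeR adjusted p = 0.0494), which was then called. Microglia markers, from cells that can carry the immunoproteasome, summed to 408 to 445 CPM and 377 to 396 CPM, with 4 of 8 above 0. Endothelial markers gave 203 to 219 CPM and 189 to 210 CPM (2 of 6 above 0), and meningeal markers 121 to 182 CPM and 128 to 211 CPM (8 of 8 above 0). Among the latter edgeR called *Col1a1* (log2 fold change 0.73, edgeR adjusted p = 0.0416), a call lost with the correction on the longest transcript (0.56, edgeR adjusted p = 0.0820). Choroid plexus markers differed most between mice, with 603, 101 and 2171 CPM in WT mice 1, 2 and 3, and 2260, 1604 and 107 CPM in Ube3am-/p+ mice 1, 2 and 3. The lowest values were those of WT mouse 2 and Ube3am-/p+ mouse 3, so this difference did not follow the genotypes. Of the red blood cell markers the globin genes were listed at 0, and *Alas2* had 3.18 to 6.69 CPM in the 6 mice. The part of these cells in the proteasome values was not tested.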

How the data were processed

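Hippocampal RNA of 3 WT and 3 Ube3am-/p+ mice was sequenced, 1 library per mouse. The authors deposited counts, whole numbers of reads for each gene symbol, neither normalized nor pooled, with the summary lines that HTSeq writes. The submitters' processing notes name STAR 2.7.4a, HTSeq and mm10, while the annotation and the strand setting are not given in the sources used here. Reads on no gene (54.1% to 55.0% of those listed), ambiguous reads and reads with more than 1 alignment were left out. Values per mouse are CPM on the total gene counts. The spread between mice covers biological and technical differences alike.

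Genes kept by filterByExpr were scaled by TMM and tested with edgeR 4.0.16 (R 4.3.3, quasi-likelihood, robust, genotype only, two-sided), with Benjamini-Hochberg adjustment over 14445 genes. DESeq2 1.42.0 was an alternative. On simulated data edgeR recovered 93.8% of 193 genes changed 2-fold, with 9 false calls among 14333 genes. That simulation used the same dispersion for every gene, no relation to GC content and no smaller changes. It therefore does not measure recovery of the smaller differences seen in the proteasome genes. The correction for GC content and length fitted natural splines (5 degrees of freedom) to each library's deviation from the mean log2 CPM, for 14201 genes with a GENCODE M21 transcript (GRCm38), all 46 proteasome genes included. It used the longest transcript or, as chosen after seeing the data, the longest coding transcript. In the latter, genes without a coding transcript kept their longest transcript. Copies were searched with BLAST+ 2.17.0. The exact permutation tests used log2(CPM + 0.5).

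Full statistics were given for the 5 largest and 5 smallest log2 fold changes, the catalytic pairs and the genes of the UBE3A network; full statistics of *Psmc1*, *Psmc5* and other genes outside this rule were added after their values were seen. The members and lists were chosen with earlier results of these data known. *Paaf1*, on the list of partners, was not listed in the counts. Values of some genes of the pathway lists are not reported here.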

Additional observations from a re-analysis of the deposited data

How the results depend on the processing

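The count of proteasome genes called by edgeR was also 0 with library size only, size factors of DESeq2, upper-quartile factors, at least 10 counts in every library, no fold threshold, the replicate block and both corrections for GC content and length. Over all genes the corrections gave 77 (longest transcript) and 66 (coding transcript) calls in place of 290. They were 1 with the replicate block added and 0 with the block alone, which fixes the count of proteasome genes there. The count of proteasome genes was 3 with DESeq2, 5 without a filter on low counts and 11 at an unadjusted p with the fold threshold. Leaving out 1 mouse gave 0 to 8 genes, with 7 without WT mouse 1 (17.6% of all genes called) and 8 without Ube3am-/p+ mouse 1 (12.5%). With the mice numbered 2 and 3 alone it was 14. Leaving out any 1 of the other 4 mice left 0 to 2 of all genes called. The cause was not tested. In the deviations from the genotype means, same-numbered mice correlated at -0.285, -0.177 and -0.311 across genes. This cannot decide whether they are pairs. From mouse 1 to mice 2 and 3 the relation to GC content fell in WT and rose in Ube3am-/p+ mice. Of all pairs of libraries, those of the mice numbered 1 differed least in their counts (chi-square per degree of freedom 3.91). WT mice 2 and 3 came next (4.08). The main fit did not take the numbers as pairs. With the replicate block, which called 0 of all genes, the median of the proteasome genes was 0.147.

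The median log2 fold change, 0.14, was 0.094 with the correction on the longest transcript, 0.0885 with the replicate block added and 0.0797 on coding transcripts. Leaving out 1 mouse gave 0.0854 (without WT mouse 2) to 0.159, and the mice numbered 2 and 3 alone gave 0.186. Genes above 0 numbered 31 to 34 under every alternative. Genes without overlap, 16, were 36 with the mice numbered 2 and 3 alone (78.3%, beside 65.9% of all genes), and 17 to 27 with 1 mouse left out (30.2% to 50.1% of all genes), the most without either mouse numbered 1. They were 12 with the correction on the longest transcript (17.8% of all genes) and 15 with TMM-scaled CPM.

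Signs turned with the corrections in 10 (longest transcript) and 12 (coding transcript) of 46 genes, among them *Psma7*, *Psmc3*, *Psmd1* and *Psmd8* with both and *Psmb3* and *Psmd3* with the second. Of the genes given full statistics by the rule, on the longest transcript, the replicate block added and coding transcripts, the log2 fold changes were 0.048, 0.045 and 0.077 for *Psma3*, 0.085, 0.085 and 0.14 for *Psmc6*, -0.093, -0.098 and -0.17 for *Psmb8*, 0.029, 0.028 and 0.045 for *Psma1*, 0.20, 0.19 and 0.24 for *Psma2*, and 0.037, 0.038 and 0.059 for *Psmd14*. *Psmb8* was also at -0.0010 with library size only and at -0.070 and -0.11 without WT mouse 3 and Ube3am-/p+ mouse 2, and reached 0.14 with another mouse left out. With 1 mouse left out *Psma1* ran from -0.118 to 0.042, above 0 without WT mouse 3 or Ube3am-/p+ mouse 1 (0.0018), and *Psma2* from -0.161 to 0.0054, the latter without Ube3am-/p+ mouse 1. The depth limits *Psmb8*, *Psmb9*, *Psmg3* and *Psmg4*, to which DESeq2 gave no adjusted p.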
